A study of Homo sapiens with 12 samples.

Results

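The insulin-like growth factor (IGF) system was followed through 10 genes: the receptors IGF1R, IGF2R and INSR, the ligand IGF2 and the binding proteins IGFBP2, IGFBP3, IGFBP4, IGFBP5, IGFBP6 and IGFBP7. The genes were taken by name, and all 10 were found among the 19923 genes counted. The set was chosen by a measured value, since IGFBP3 was higher with the METTL3 inhibitor STM2457 in both cell lines studied. The responses to STM2457 are therefore given for these genes as descriptions without a p-value. Except for IGFBP3, tests are given for the difference between the untreated lines and for the difference between the responses of the lines.

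IGF1 and IGF2 are secreted hormones that bind IGF1R, a receptor tyrosine kinase that signals through insulin receptor substrates to PI3K and AKT and supports growth and survival. INSR, the insulin receptor, also binds IGF2 in one of its splice forms, while IGF2R takes up IGF2 and sends it to lysosomes. IGF binding proteins hold the ligands outside the cell and either withhold or deliver them, and pappalysin proteases cut some of them to release the ligand. IGF2 and IGF1R are known to support growth of neuroblastoma, a childhood tumour of the sympathetic nervous system.

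Polyadenylated RNA was sequenced from SK-N-BE2 and NGP, both established human neuroblastoma lines with amplified MYCN and labelled wild type. Cells received STM2457, an inhibitor of the RNA methyltransferase METTL3, which places N6-methyladenosine on messenger RNA, or DMSO as the solvent control, for 6 days. The 4 groups were SK-N-BE2 with DMSO, SK-N-BE2 with 12 µM STM2457, NGP with DMSO and NGP with 1 µM STM2457, each with 3 replicates. The headers of the counts name a separate output folder for each line, which may mark a batch, and the labels name no sequencing run. Line and any such batch cannot be told apart in any comparison between lines, nor can the dose of STM2457 where responses are compared. The labels do not say that replicates were separate cultures, so p-values measure only the spread between these libraries, which may be technical.

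The 12 libraries held 47242379 to 58159937 counted reads. One library, NGP with DMSO replicate 1, stood apart: its counts differed from replicates 2 and 3 of its group by a chi-square per degree of freedom of 92.6 and 60.8, against 11.0 between those 2. Without it, the number of genes called in NGP at an adjusted p under 0.05 went from 5671 to 7897. Some results in NGP are therefore also given without it. Values given once use all libraries and can move without this library. The transcript of METTL3, whose protein is the target and was not measured, had a log2 fold change with STM2457 of 0.52 in SK-N-BE2, at an edgeR adjusted p = 0.000106, and of 0.92 in NGP, at an adjusted p = 0.0003. Of the neuroblast markers, TH held only 8 to 53 reads in the libraries of NGP. Of 10 mesenchymal markers, COL1A2 and YAP1 were too scarce to be tested in NGP. They held 9 and 23 reads over the DMSO libraries and 6 and 12 over the STM2457 libraries. The summed level of all 10 was 280 to 364 CPM (reads scaled to library size) in NGP with DMSO and 1050 to 1172 CPM with STM2457. Of the 8 markers tested there, 6 were called higher, where 19.4% of all genes were. In SK-N-BE2 that sum was 1242 to 1351 CPM with DMSO and 1307 to 1426 CPM with STM2457, with 4 of 8 called higher and 1 lower, where 26.9% and 27.8% of all genes were. Neuroblast markers summed to 2195 to 2975 CPM and 2463 to 3029 CPM in NGP and to 4610 to 5583 CPM and 4640 to 5046 CPM in SK-N-BE2, with DMSO and with STM2457. Of these, 2 were called lower and 0 higher among 10 tested in NGP, where 22.2% and 19.4% of all genes were. In SK-N-BE2, 4 were called lower and 2 higher among 9 tested, where 27.8% and 26.9% of all genes were. Schwann, endothelial and leukocyte markers summed to at most 5.80, 22.5 and 8.66 CPM in any library. The part of these markers in the results was not tested. In such pooled cells, fewer cells of a type and less RNA per cell cannot be told apart.

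Levels of different genes were compared per length, as TPM, which divides reads by the deposited exon lengths before scaling. In SK-N-BE2 with DMSO, IGFBP2 stood first at 396 ± 65.5 TPM (SD, n = 3), followed by IGFBP4 at 111 ± 11.9 and IGF1R at 45.5 ± 5.20 TPM. IGF2 at 24.6 ± 10.3, IGF2R at 23.9 ± 2.26 and IGFBP7 at 20.6 ± 5.44 TPM came next, and each overlapped its neighbour in that order. IGFBP5 at 11.5 ± 0.338 TPM and INSR at 11.1 ± 1.13 TPM also overlapped. IGFBP3 at 4.66 ± 0.519 TPM and IGFBP6 at 1.45 ± 0.199 TPM closed the order, each apart from its neighbours.

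In NGP with DMSO, IGFBP4 at 352 ± 50.1, IGFBP2 at 294 ± 43.3 and IGF2 at 259 ± 36.4 TPM (SD, n = 3) led, and neighbours in that order overlapped. IGFBP5 followed at 162 ± 33.6 TPM, apart from the genes on either side. IGF2R at 25.2 ± 6.25, IGF1R at 23.6 ± 7.24 and INSR at 16.6 ± 3.28 TPM overlapped in turn. IGFBP3 came next at 9.97 ± 1.29 TPM, while IGFBP7 and IGFBP6 were at or near 0.

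With STM2457 the order shifted in both lines. In SK-N-BE2, IGF2 moved from place 4 to place 9 at 7.80 ± 2.03 TPM, and IGFBP3 moved from place 9 to place 6 at 19.2 ± 1.23 TPM. In NGP, IGFBP3 at 28.7 ± 3.35 TPM lay above IGF2R at 21.9 ± 0.264 TPM with no overlap, whereas with DMSO it lay below it.

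**Figure D1:**
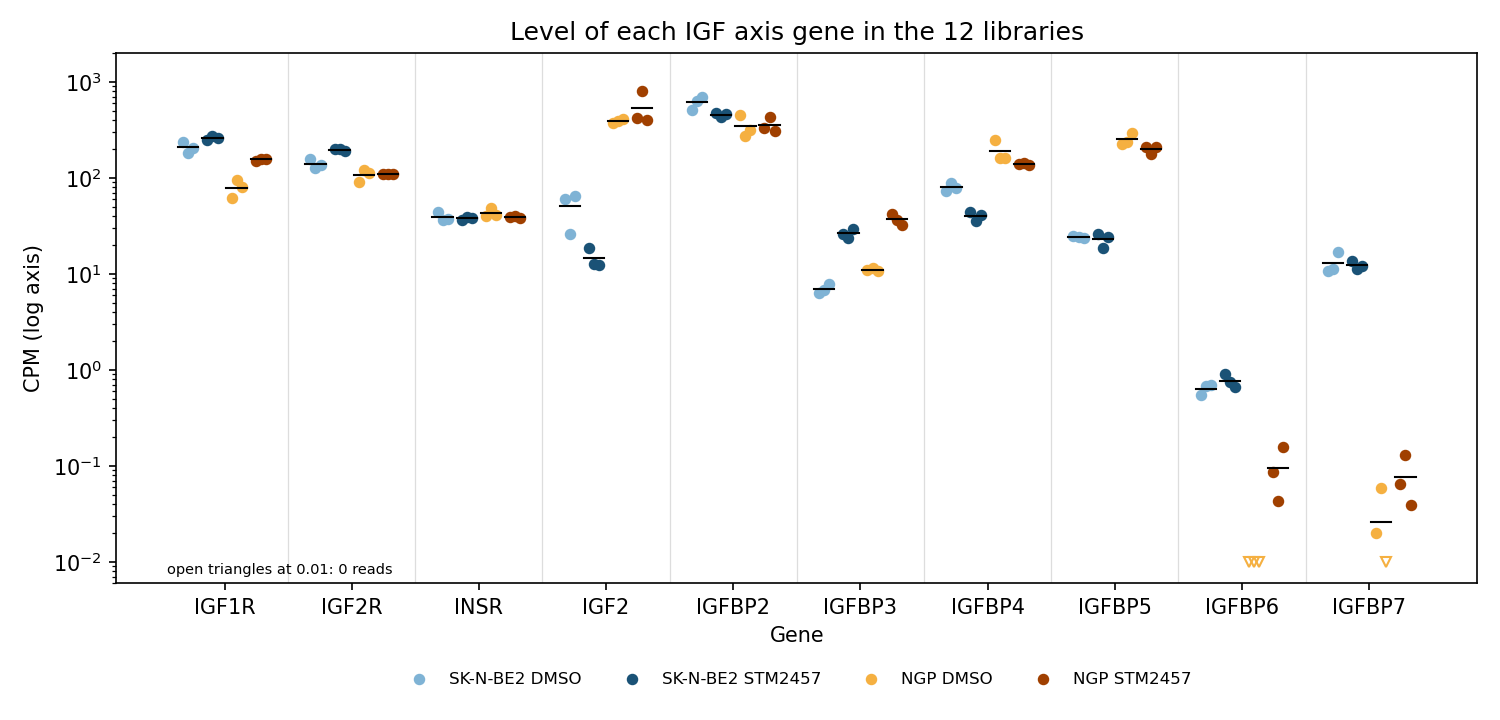
Level in CPM (log axis) of the 10 genes in each of the 12 libraries, coloured by group, with short lines at the group means and open triangles for libraries with 0 reads. IGFBP3 is higher with STM2457 in both lines, IGF2 is lower with STM2457 in SK-N-BE2 but not in NGP, and IGFBP6 and IGFBP7 are at or near 0 in NGP.

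Among the receptors, IGF1R was higher with STM2457 in both lines. IGF1R (15:98648539-98964530, GRCh38, plus strand) stood at 235, 184 and 204 CPM in SK-N-BE2 with DMSO and at 249.5, 272 and 262 CPM with STM2457. In NGP it stood at 61.0, 94.3 and 79.8 CPM with DMSO and at 151, 158 and 158 CPM with STM2457. In both lines every treated library lay above every control library. The log2 fold change was 0.29 ± 0.10 (SE) in SK-N-BE2. In NGP it was 0.96 ± 0.15, and 0.81 without DMSO replicate 1. The SK-N-BE2 value fell short of the threshold without DMSO replicate 3, without STM2457 replicate 2 or 3 and in a joint fit of both lines, with 0.22 to 0.39 over all alternatives.

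IGF2R (6:159969099-160113507, plus strand), the clearance receptor, was higher with STM2457 in SK-N-BE2. Its libraries read 156, 127 and 137 CPM with DMSO and 199, 201 and 190.4 CPM with STM2457, without overlap, a log2 fold change of 0.46 ± 0.09 (SE). In NGP the values were 90.3, 122 and 111 CPM against 109, 111 and 109.5 CPM, and the treated libraries lay inside the range of the controls. The NGP log2 fold change was 0.00 ± 0.12 (SE), becoming -0.11 without DMSO replicate 1.

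INSR (19:7112255-7294414, minus strand), the insulin receptor, had similar levels in all groups. It ranged over the 12 libraries from 36.5 to 48.3 CPM. Its log2 fold change with STM2457 was -0.10 ± 0.10 (SE) in SK-N-BE2. In NGP it was -0.18 ± 0.11, and neither value was called. In NGP, treated libraries at 38.9, 39.7 and 37.9 CPM all lay below the controls at 40.1, 48.3 and 41.4 CPM, and the value was called without DMSO replicate 1.

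The ligand IGF2 (11:2129112-2141238, minus strand) was lower with STM2457 in SK-N-BE2 and not in NGP. SK-N-BE2 libraries held 60.5, 25.8 and 65.4 CPM with DMSO and 18.8, 12.8 and 12.5 CPM with STM2457, a log2 fold change of -1.82 ± 0.27 (SE). DMSO replicate 2 was the lowest control and still lay above every treated library. NGP libraries held 373, 389 and 410.3 CPM with DMSO and 423, 801 and 399 CPM with STM2457. STM2457 replicate 2 stood far above the others, and the log2 fold change of 0.44 ± 0.24 (SE), not called, was 0.07 without it. Of the exon bases of IGF2, 70.7% are shared with the read-through genes AC132217.2 or INS-IGF2, so reads there can be ambiguous and lost and its level is uncertain. IGF1, the other ligand, had 2 reads in all 12 libraries together.

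IGFBP3 (7:45912245-45921874, minus strand), the main carrier of IGFs in blood and a secreted growth inhibitor in many cell types, is the gene whose rise chose the set. SK-N-BE2 libraries read 6.29, 6.76 and 7.86 CPM with DMSO and 25.9, 23.9 and 29.5 CPM with STM2457. NGP libraries read 10.9, 11.5 and 10.7 CPM with DMSO and 41.8, 36.8 and 32.6 CPM with STM2457. The lowest treated library was thus far above the highest control in both lines. The log2 fold change was 1.89 ± 0.12 (SE) in SK-N-BE2 and 1.72 ± 0.13 in NGP. It ranged from 1.80 to 1.98 and from 1.63 to 1.81 over the alternative settings.

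IGFBP4 (17:40443450-40457725, plus strand), a binding protein that withholds IGFs and is cut by PAPPA, was lower with STM2457 in both lines. SK-N-BE2 libraries held 73.1, 87.8 and 78.7 CPM with DMSO and 44.6, 35.5 and 40.96 CPM with STM2457, a log2 fold change of -1.02 ± 0.10 (SE). NGP libraries held 248.5, 163 and 162.5 CPM with DMSO and 138, 144 and 137.5 CPM with STM2457. The groups did not overlap in either line. In NGP the log2 fold change was -0.48 ± 0.16 (SE), and -0.25 without DMSO replicate 1, the highest library. The NGP call was lost without any 1 of the STM2457 replicates and with a replicate block.

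The 250 bases upstream of the RefSeq start (GRCh38.p14) of IGFBP3, higher in both lines, and of IGFBP4, lower in both, are shown with motif matches in capitals. The IGFBP3 window is chr7:45921273-45921522 on the minus strand and the IGFBP4 window chr17:40443200-40443449 on the plus strand. The IGFBP3 window lies upstream of the RefSeq start but inside the gene as annotated for counting, which extends to 45921874.
IGFBP3: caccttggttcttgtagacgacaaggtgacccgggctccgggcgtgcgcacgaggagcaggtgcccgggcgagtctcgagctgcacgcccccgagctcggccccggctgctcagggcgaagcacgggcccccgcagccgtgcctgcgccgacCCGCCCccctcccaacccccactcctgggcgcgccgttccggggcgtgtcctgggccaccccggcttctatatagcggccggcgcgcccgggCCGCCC
IGFBP4: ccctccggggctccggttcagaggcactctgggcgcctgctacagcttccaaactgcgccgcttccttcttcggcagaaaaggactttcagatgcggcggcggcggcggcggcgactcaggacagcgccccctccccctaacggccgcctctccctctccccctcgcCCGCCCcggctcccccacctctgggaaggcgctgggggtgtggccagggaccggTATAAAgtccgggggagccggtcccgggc

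Both windows are rich in G and C, with 76.0% in IGFBP3 and 71.6% in IGFBP4 against a median of 58% over 35116 such windows. The GC box GGGCGG, searched on both strands and present here as its reverse complement CCGCCC, occurs 2 times in IGFBP3 and 1 time in IGFBP4, and 42.6% of all windows hold it. The TATA box TATAAA occurs 1 time in IGFBP4 and in 10.7% of all windows. The CCAAT box, CCAAT, matched neither window, and 32.0% of all windows hold it. The E-box CACGTG matched neither and is in 6.34% of all windows. The hypoxia response core ACGTG, which lies within that E-box, matched neither and is in 18.5%. RefSeq windows were matched for 8 of the 10 genes.

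IGFBP2 (2:216632828-216664436, plus strand), the most abundant binding protein transcript in SK-N-BE2, was lower with STM2457 there. Its libraries read 504, 638 and 701 CPM with DMSO and 474, 427 and 463.5 CPM with STM2457, a log2 fold change of -0.47 ± 0.11 (SE). The lowest control and the highest treated library lay close together, and the call was lost in the joint fit of both lines. NGP libraries read 447, 273 and 312.5 CPM with DMSO and 331, 426 and 310.4 CPM with STM2457, with overlap. The NGP log2 fold change of 0.02 ± 0.19 (SE) became 0.25 without DMSO replicate 1.

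IGFBP5 (2:216672105-216695549, minus strand), a matrix-associated binding protein, lies beside IGFBP2 on chromosome 2 and was lower with STM2457 in NGP. NGP libraries held 225, 239 and 291.5 CPM with DMSO and 211, 177 and 209 CPM with STM2457, a log2 fold change of -0.36 ± 0.13 (SE). The groups did not overlap, but the call was lost in 7 of the 14 alternative settings, among them the omission of DMSO replicate 2 or 3 or of any STM2457 replicate. In SK-N-BE2 the level was 24.4 ± 0.627 CPM (SD, n = 3) with DMSO and 23.1 ± 3.91 CPM with STM2457, and the libraries overlapped.

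IGFBP6 (12:53097436-53102345, plus strand), which prefers IGF2 over IGF1, was scarce. SK-N-BE2 libraries held 31, 34 and 36 reads with DMSO and 49, 38 and 35 reads with STM2457. NGP held 0 reads in the 3 DMSO libraries and 4, 2 and 8 reads with STM2457. With the control group set at 3 reads, that is 4.95-fold higher. This is no firm lower bound, since a fragment can add 2 reads. Of the counts from 1 to 20 in a library, 72.1% to 75.4% were even.

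IGFBP7 (4:57030773-57110385, minus strand), a related protein with low affinity for IGFs, was near 0 in NGP. SK-N-BE2 libraries read 10.7, 11.2 and 17.1 CPM with DMSO and 13.7, 11.2 and 12.2 CPM with STM2457, with overlap. NGP libraries held 1, 3 and 0 reads with DMSO and 3, 6 and 2 reads with STM2457, a ratio of 2.91 (95% counting interval 0.864 to 12.6). Counting intervals cover counting error only, and they are too narrow because they treat the 2 reads of a fragment as independent. Of its exon bases 13.5% are shared with POLR2B, so its level is uncertain to that extent.

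**Figure D2:**
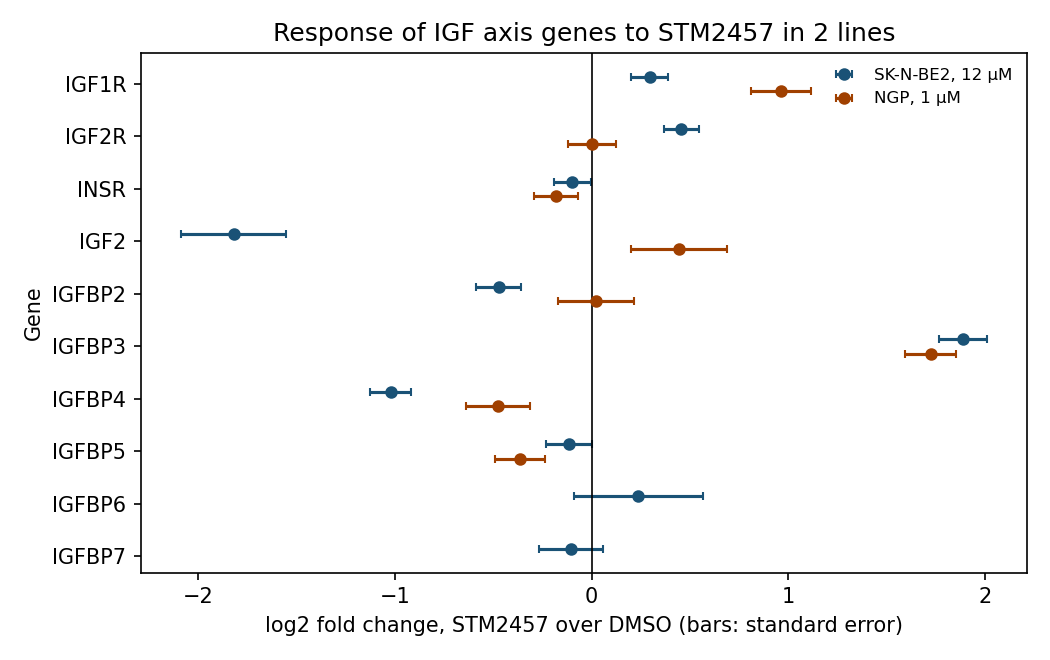
Log2 fold change of STM2457 over DMSO with its standard error for the genes tested in SK-N-BE2 (12 µM, blue) and NGP (1 µM, brown). IGFBP3 lies at 1.89 and 1.72, IGFBP4 lies below 0 in both lines, and IGF2 lies at -1.82 in SK-N-BE2 and at 0.44 in NGP.

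In SK-N-BE2, 6 of the 10 genes were called, 3 higher and 3 lower, where 54.7% of the 14013 genes tested were called, 26.9% higher and 27.8% lower. The same 6 were the genes whose treated and control libraries did not overlap, where 62.2% of genes tested did not, 33.2% higher and 29.0% lower. In NGP, 8 of the 10 genes passed the filter on low counts and 4 were called, 2 higher and 2 lower, where 41.7% of 13610 genes were called, 19.4% higher and 22.2% lower. Libraries did not overlap for 2 higher and 3 lower of these 8, where 54.7% of genes did not, 28.4% higher and 26.2% lower. The median log2 fold change of the genes tested was -0.10 in SK-N-BE2, where that of all genes was -0.02. In NGP it was 0.01, where that of all genes was -0.03. Since the responses chose the set, nothing is read from these counts.

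The untreated lines differed in 9 of the 10 genes, where 71.1% of 14731 genes were called between them. IGFBP6 and IGFBP7 are among the 9 but passed the filter on low counts only through SK-N-BE2, so no p is given for them. IGFBP3, whose rise chose the set, is also among the 9 and is given without a p. The 3 libraries of one line did not overlap those of the other for 5 genes higher and 4 lower in SK-N-BE2, where 68.9% of genes did not overlap. IGF1R was higher in SK-N-BE2, at 208 ± 25.9 against 78.4 ± 16.7 CPM (SD, n = 3), a log2 difference of 1.41 ± 0.13 (SE, edgeR adjusted p = 3.15e-07). IGF2R differed by 0.38 ± 0.11 in the same direction (edgeR adjusted p = 0.00605), and by 0.28 without NGP DMSO replicate 1, while INSR did not pass the test at -0.13 ± 0.10 (edgeR adjusted p = 0.255). With a replicate block the IGF2R difference was not called, at an edgeR adjusted p of 0.104. On the TPM scale IGF2R stood at 23.95 ± 2.26 in SK-N-BE2 and 25.24 ± 6.25 in NGP (SD, n = 3). The direction of its difference thus depends on the scale.

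The ligand IGF2 and the binding proteins IGFBP3, IGFBP4 and IGFBP5 were higher in NGP. IGF2 stood at 391 ± 18.6 CPM in NGP against 50.6 ± 21.6 CPM in SK-N-BE2 (SD, n = 3), a log2 difference of -2.95 ± 0.33 (SE, SK-N-BE2 minus NGP, edgeR adjusted p = 1.59e-06). IGFBP5 differed by -3.37 ± 0.14 (edgeR adjusted p = 3.94e-11), from 252 ± 35.1 CPM in NGP to 24.4 ± 0.627 CPM in SK-N-BE2. IGFBP4 differed by -1.26 ± 0.15 (edgeR adjusted p = 2.87e-06) and by -1.004 without NGP DMSO replicate 1. IGFBP3 differed by -0.66 ± 0.13, with more of it in NGP. This is given without a test, since its DMSO libraries entered the responses that chose the set.

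IGFBP2, IGFBP6 and IGFBP7 were the binding proteins higher in SK-N-BE2. IGFBP2 differed by a log2 value of 0.84 ± 0.17 (SE, edgeR adjusted p = 0.000616), and by 1.09 without NGP DMSO replicate 1. IGFBP7 had 2062 reads over the 3 SK-N-BE2 libraries against 4 in NGP, which is 495 times as many per depth, within 193 to 1820 by its 95% counting interval. IGFBP6 had 101 reads against 0, which is 32.3-fold higher when NGP is set at 3 reads over the group, again no firm lower bound. The median size of the log2 difference was 1.33 over the 10 genes and 0.72 over all genes tested. The 1.33 includes the fitted values of IGFBP6 and IGFBP7, which passed the filter only through SK-N-BE2, so nothing is read from this contrast.

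The difference between the responses of the lines was called for 4 of the 10 genes, IGFBP6 among them, where 30.9% of 14731 genes were called. The ligand IGF2 was lower in SK-N-BE2 and not in NGP, and the log2 difference of the responses was -2.25 ± 0.44 (SE, SK-N-BE2 minus NGP, edgeR adjusted p = 0.00159). The IGF1R response was smaller in SK-N-BE2 (-0.66 ± 0.19, edgeR adjusted p = 0.0154), and the difference was -0.52 without NGP DMSO replicate 1. The IGF2R response was larger in SK-N-BE2 by 0.47 ± 0.15 (edgeR adjusted p = 0.0305). That call for IGF2R was lost in 10 of 19 alternative settings, with an adjusted p of up to 0.089, and 9 of the 10 leave out a library. IGFBP6 entered this fit only through SK-N-BE2, and with 0 reads in NGP with DMSO its call supports no difference.

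For the remaining genes the difference of responses did not pass the test. Among them, IGFBP7 entered this fit only through SK-N-BE2, with 4 reads in NGP with DMSO and 11 with STM2457. Its result therefore decides nothing. IGFBP4 differed by -0.53 ± 0.21 (SE, edgeR adjusted p = 0.066), with an interval from -0.94 to -0.13, and by -0.78 without NGP DMSO replicate 1, where it was called (adjusted p = 0.000207). IGFBP2 differed by -0.48 ± 0.24 (adjusted p = 0.153) and by -0.73 without that library (adjusted p = 0.00469). INSR differed by 0.09 with an interval from -0.19 to 0.38, and IGFBP5 by 0.26 with an interval from -0.10 to 0.62. The responses of IGFBP3 differed by 0.18 ± 0.18, given without a test, with an interval from -0.17 to 0.52. The comparison of untreated lines and the responses share the DMSO libraries.

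The binding protein transcripts were mostly IGFBP2 in SK-N-BE2 and were spread over IGFBP2, IGFBP4 and IGFBP5 in NGP. The 6 binding proteins summed to 545 ± 77.2 TPM in SK-N-BE2 with DMSO and 433 ± 26.6 TPM with STM2457, and to 818 ± 62.0 and 629.7 ± 42.1 TPM in NGP (SD, n = 3). The sizes of these changes hold for the TPM scale only. In NGP, mean IGFBP2 went from 344 to 356 CPM with STM2457 but from 294 to 266 TPM. IGFBP2 made up 72.5% ± 1.99 of the sum in SK-N-BE2 with DMSO and 73.5% ± 1.02 with STM2457. In NGP it made up 35.9% ± 2.51 and 42.1% ± 4.37. The IGFBP4 share was 20.5% ± 2.16 with DMSO and 14.0% ± 0.661 with STM2457 in SK-N-BE2. In NGP it was 42.9% ± 3.38 and 35.8% ± 1.497.

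IGFBP3 stayed a minor part of the binding protein transcripts in both lines. Its share was 0.859% ± 0.0591 in SK-N-BE2 with DMSO and 4.44% ± 0.372 with STM2457 (SD, n = 3). In NGP its share was 1.23% ± 0.246 and 4.57% ± 0.584. IGFBP5 held 19.99% ± 5.12 and 17.5% ± 2.69 in NGP but 2.15% ± 0.373 and 2.72% ± 0.286 in SK-N-BE2. In NGP with DMSO, IGFBP5 held 14.3% in replicate 1 against 21.6% and 24.1% in the others.

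**Figure D3:**
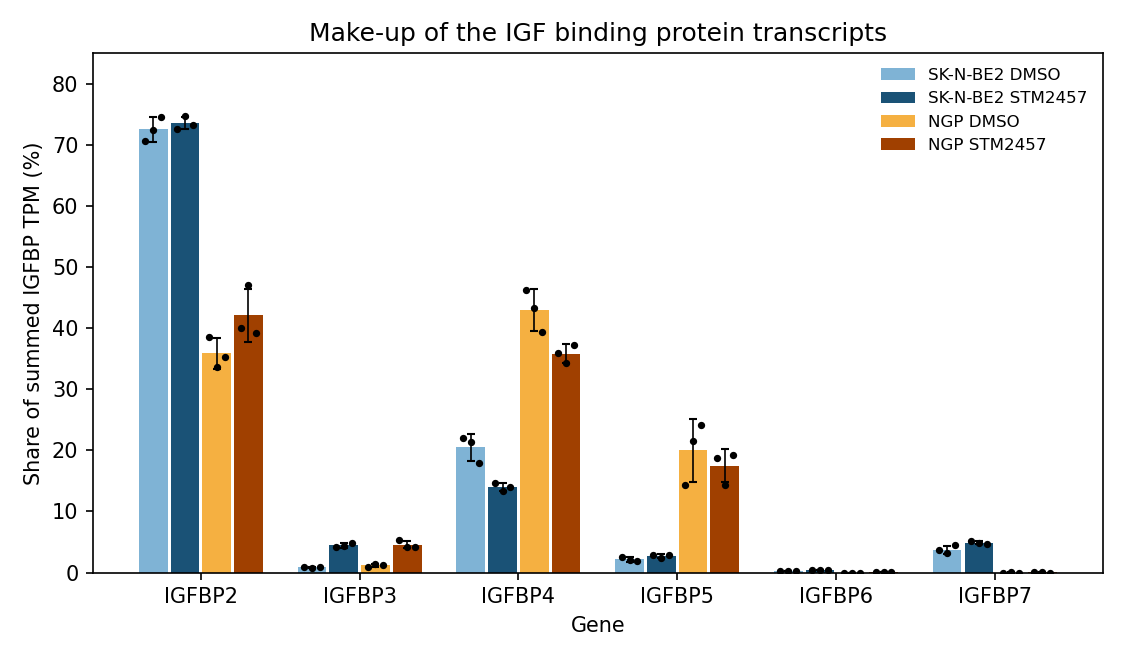
Share of the summed TPM of 6 IGF binding proteins held by each, with bars at the group mean, error bars of 1 SD and points for the 3 libraries of each group. IGFBP2 holds 72.5% in SK-N-BE2 with DMSO against 35.9% in NGP, and the IGFBP3 share is higher with STM2457 in both lines.

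The TPM ratio of IGF2R to IGF1R was 1.09 ± 0.0728 with DMSO and 0.552 ± 0.0124 with STM2457 in NGP (SD, n = 3). In SK-N-BE2 it was 0.527 ± 0.0117 with DMSO and 0.590 ± 0.0304 with STM2457.

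A list of 64 other genes of the pathway, from proteases to AKT targets, was described beside the 10. In SK-N-BE2, 35 of the 58 tested were called, 17 higher and 18 lower, which is 60.3% against 54.7% of all genes. In NGP, 25 of the 56 tested were called, 13 higher and 12 lower, which is 44.6% against 41.7% of all genes. Without NGP DMSO replicate 1 that number was 39, and without NGP DMSO replicate 3 it was 16. Calls over all genes moved the same way, with 7897 of 13776 without replicate 1 and 4360 of 13795 without replicate 3.

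Among proteases and their regulators, STC2 fell and STC1 rose in both lines. STC2, a secreted inhibitor of PAPPA, fell from 440.5 ± 33.3 to 23.7 ± 0.436 CPM (SD, n = 3) in SK-N-BE2, a log2 fold change of -4.26 with a standard error of 0.10 (edgeR, adjusted p = 4.32e-12). In NGP it fell from 275 ± 4.88 to 57.3 ± 6.28 CPM, a log2 fold change of -2.29 with a standard error of 0.11 (edgeR, adjusted p = 4.07e-06). STC1, the related stanniocalcin, rose in both, by 1.35 in SK-N-BE2 (adjusted p = 9.16e-06) and 1.47 in NGP (adjusted p = 0.000701). PAPPA, which cuts IGFBP4, rose by 1.12 in SK-N-BE2 (adjusted p = 0.000341) and by 1.15 in NGP (adjusted p = 0.0219). In NGP, PAPPA held only 23, 24 and 17 reads with DMSO and 49, 46 and 41 with STM2457, so depth limits this value. ADAM12, a further protease of binding proteins, rose by 0.44 in SK-N-BE2 (adjusted p = 0.00189) and by 0.92 in NGP (adjusted p = 0.00604). All 9 genes of this group were called in SK-N-BE2, 5 higher and 4 lower, where 54.7% of all genes were called. In NGP 5 of 9 were called, 3 higher and 2 lower, where 41.7% of all genes were.

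Of the other receptors and secreted relatives, INSRR and KAZALD1 changed in opposite directions in the lines. INSRR, the insulin receptor-related receptor, fell by 0.99 in SK-N-BE2 (edgeR adjusted p = 8.72e-05) and rose by 2.05 in NGP (adjusted p = 0.000157). KAZALD1, a secreted protein with an IGF binding protein domain, fell by 1.12 in SK-N-BE2 (adjusted p = 5.5e-06) and rose by 1.02 in NGP (adjusted p = 0.00972). In SK-N-BE2, LRP1 fell by 1.23 (adjusted p = 5.91e-07), TMEM219, described as a receptor for IGFBP3, fell by 0.53 (adjusted p = 0.000546), and IGFBPL1 rose by 0.63 (adjusted p = 2.26e-05). In NGP, LRP1 and TMEM219 did not pass the test.

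Among the adaptors below the receptors, GRB10, which restrains IGF1R and INSR signalling, fell in both lines. Its level went from 3.97 ± 0.841 to 0.509 ± 0.290 CPM in SK-N-BE2 and from 7.11 ± 2.84 to 0.928 ± 0.0449 CPM in NGP (SD, n = 3). On the log2 scale GRB10 fell by 2.99 in SK-N-BE2, with a standard error of 0.33 and an edgeR adjusted p = 7.29e-06. In NGP it fell by 2.96, with a standard error of 0.32 and an adjusted p = 0.000204. IRS2, a substrate of both receptors, fell by 0.58 in SK-N-BE2 (adjusted p = 6.38e-05) and by 1.80 in NGP (adjusted p = 0.000164). GAB1, a docking protein, rose by 1.13 (adjusted p = 6.21e-06) and by 0.84 (adjusted p = 0.00738).

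In the PI3K and AKT group, 11 of 28 (39.3%) were called in SK-N-BE2, 5 higher and 6 lower, against 54.7% of all genes. In NGP 10 of 28 (35.7%) were called, 4 higher and 6 lower, against 41.7% of all genes. EIF4EBP1, a translation repressor under mTOR, fell by 1.12 in SK-N-BE2 (edgeR adjusted p = 5.09e-06) and by 1.05 in NGP (adjusted p = 0.00471). MLST8, an mTOR complex subunit, fell by 0.99 in SK-N-BE2 (adjusted p = 1.53e-06) and by 0.56 in NGP (adjusted p = 0.0287). FOXO3, a transcription factor held back by AKT, fell by 0.51 in SK-N-BE2 (adjusted p = 9.37e-05) and by 1.49 in NGP (adjusted p = 0.000101). PIK3R3, a regulatory subunit with 17.5% of its exon bases shared with AL358075.4 and so uncertain, rose by 0.87 in SK-N-BE2 (adjusted p = 4.41e-06) and by 0.94 in NGP (adjusted p = 0.000151).

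The IGF2 mRNA-binding proteins, named for their binding of IGF2 messages, were tested for 2 of 3 members in each line, and both rose in NGP. IGF2BP1 rose by 0.66 ± 0.11 (SE, edgeR adjusted p = 0.00176) and IGF2BP3, with 17.8% of its exon bases shared with MALSU1, by 0.93 ± 0.24 (adjusted p = 0.0155). Without NGP DMSO replicate 1 the values were 0.57 and 0.66. In SK-N-BE2 the IGF2BP3 value of 0.21 did not pass the test (adjusted p = 0.161).

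**Figure D4:**
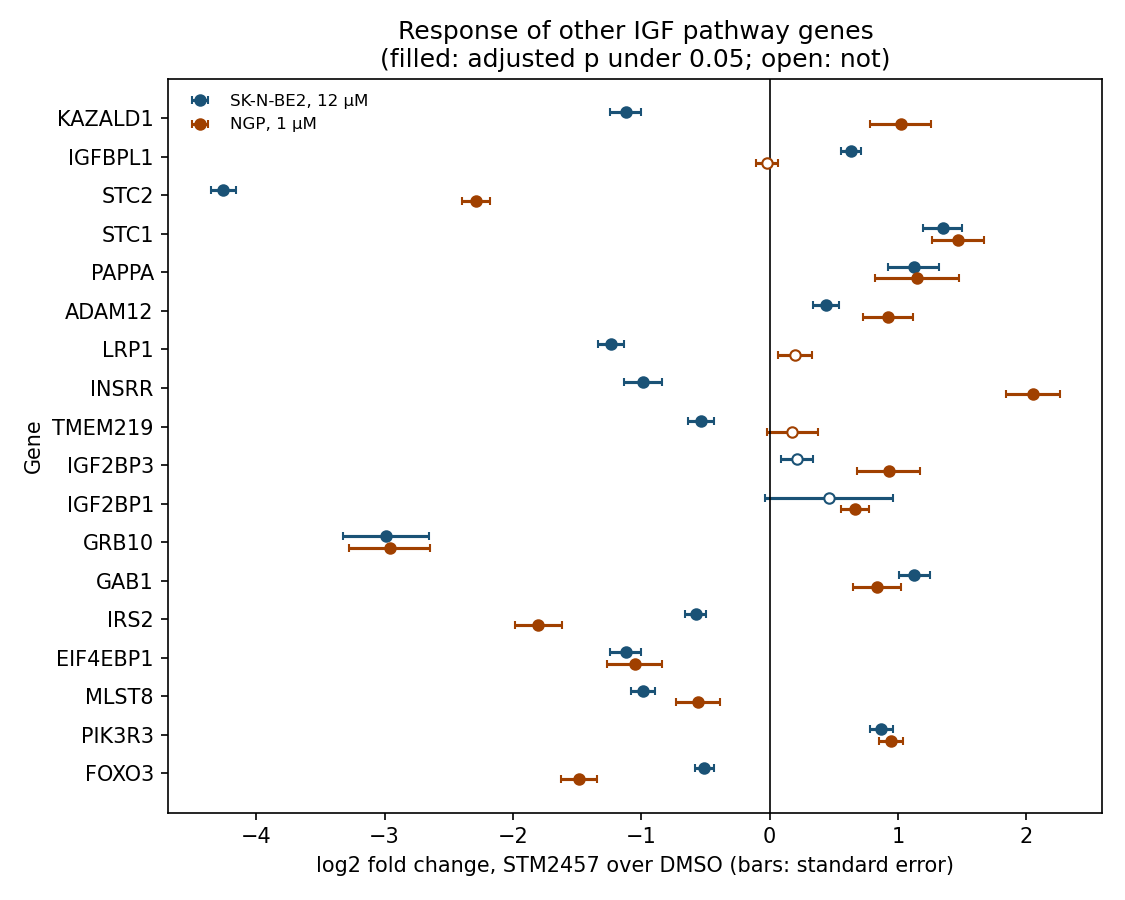
Log2 fold change of STM2457 over DMSO with its standard error for the pathway genes named by size in either line, in SK-N-BE2 (blue) and NGP (brown), filled where the adjusted p was under 0.05. STC2 and GRB10 lie far below 0 in both lines, while INSRR and KAZALD1 lie on opposite sides of 0.

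The 5 genes with the pattern most like IGFBP3 over the 12 libraries, by Pearson r of log2 CPM among 9768 genes, were CLSPN (r = 0.980), ITSN1 (0.979), ZNF107 (0.977), OGDH (0.977) and C4orf3 (0.973). CLSPN stood at 12.4, 65.5, 27.0 and 85.8 CPM in SK-N-BE2 with DMSO and STM2457 and in NGP with DMSO and STM2457, and IGFBP3 at 6.97, 26.5, 11.0 and 37.0 CPM. These r values describe 12 libraries that fall into 4 groups and share line and treatment.

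METTL3 acts in sequence contexts of which GGACT is a frequent core, so the coding sequences and transcripts of the 10 genes were searched for these letters (GENCODE 44, transcript strand). Over 20046 coding sequences 71.5% hold GGACT, with a median of 0.956 per kb coding. IGFBP3 had 0 in its coding sequence and 1 in the transcript, 575 bases after the stop codon in the 3′ UTR (7:45913271-45913275, minus strand). IGFBP4 had 1 in its coding sequence (17:40456547-40456551) and 4 in the transcript, and IGFBP5 had 1 in its coding sequence (2:216676789-216676793, minus strand) and 9 in the transcript. IGF2 had 0 coding and 3 in all, IGFBP7 had none, and IGF1R, IGF2R and INSR had 6, 7 and 3 coding matches. IGFBP2 had 1 match and IGFBP6 had 2, all of them coding. Per kb of transcript the median over genes was 0.925. The binding proteins IGFBP2 to IGFBP7, in order, had 0.707, 0.383, 1.81, 1.44, 2.11 and 0 per kb. IGF1R, IGF2R, INSR and IGF2 had 0.736, 0.925, 0.74 and 0.538 per kb. Matches in 4 binding proteins are shown in 25-base windows with GGACT in capitals, and a match says nothing about methylation, which was not measured.
IGFBP3, 3′ UTR: tactgcttggGGACTattggagaaa
IGFBP4, coding: agggggagctGGACTgccaccagct
IGFBP5, coding: acgttgacggGGACTttcagtgcca
IGFBP2, coding, across an exon junction: ccccctgccaGGACTccctgccaac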

How the data were processed

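Per the file headers, the authors ran featureCounts 2.0.5 on exons of GENCODE 33 protein-coding genes by gene name, with no strand option and no request to count pairs, so a fragment can add 2. The deposited values are whole-number counts, not normalized. Per the submitters' processing notes, FastQC 0.11.5, Trimmomatic 0.36, HISAT2 2.1.0 and Subread 1.5.3 were used with GRCh38, and this Subread version differs from the header's.

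Each line's 6 libraries were fitted in edgeR 4.0.16 (R 4.3.3) with filterByExpr (minimum count 10), TMM, the quasi-likelihood test and Benjamini-Hochberg adjustment over all genes, with a threshold of 0.05. The untreated lines and the difference of responses were contrasts of 4 group means over 12 libraries. Standard errors came from the fold change and its F statistic, and intervals are 95%. CPM use TMM over all libraries. The fits were tested on simulated data.

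The members, the pathway and marker lists and the tests were chosen with earlier results of these data known. Pathway genes were named as up to 3 called genes per subgroup and line with the largest change and at least 1 CPM in the higher group. Genes like IGFBP3 were ranked by r among genes averaging at least 10 CPM, leaving out members, mitochondrial and Y-linked genes. Alternatives were DESeq2 1.42.0, its size factors, upper-quartile factors, other filters, a replicate block, a joint fit, leaving out each library and, added after seeing the data, halved counts. Schwann, endothelial and leukocyte markers were also summed. The value of 1 neuroblast marker is not reported here. At 47242379 to 58159937 reads, counting error is small except for genes of few reads.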

Additional observations from a re-analysis of the deposited data

Results flagged for a closer look

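The test of the difference between the lines' responses to STM2457 called 4 of the 10 genes, where 30.9% of all genes were called. Of the pathway list it called 15 of 58 (25.9%), and 8 of these are among the genes named for their change in a line. Values are log2 differences, SK-N-BE2 minus NGP, with edgeR adjusted p-values over all genes.

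For IGF1R the difference was -0.66 (adjusted p = 0.0154). For IGF2R it was 0.47 (adjusted p = 0.0305). For IGF2 it was -2.25 (adjusted p = 0.00159). For IGFBP6 the fitted value was -5.07, which depends on the prior count because NGP with DMSO had 0 reads. IGFBP6 passed the filter only through SK-N-BE2, so this call supports no difference.

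Of the pathway genes, INSRR differed by -3.03 (adjusted p = 4.13e-06), KAZALD1 by -2.13 (adjusted p = 6.65e-05), STC2 by -1.96 (adjusted p = 2.45e-07) and LRP1 by -1.42 (adjusted p = 4.49e-05). IRS2 differed by 1.24 (adjusted p = 0.000494), FOXO3 by 0.99 (adjusted p = 0.000249) and IGFBPL1 by 0.67 (adjusted p = 0.000503). TMEM219 differed by -0.70 (adjusted p = 0.0388), a call lost in 10 of 19 alternative settings. Line, dose and any batch that goes with the line cannot be told apart in these differences.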

How the results depend on the processing

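The number of the 10 genes called in NGP went from 4 to 2 with a replicate block, and ranged from 2 to 5 when 1 library was left out. The 10 include IGFBP3, whose rise chose the set. Over all genes, 5026 of 13610 were called with that block, against 5671 with the main settings. With 1 library left out, 3816 of 13781 to 7897 of 13776 were called in NGP. The number of pathway genes called in NGP ranged from 16 to 39 when 1 library was left out, against 25 with all, and for the difference of responses from 14 to 26, against 15. The other alternatives gave 4 to 6 of the 10 genes in SK-N-BE2 (6 with all libraries and the main settings), 8 to 9 between the untreated lines (9) and 3 to 5 for the difference of responses (4). Their lowest and highest shares of all genes were 6572 of 14731 and 7190 of 12421, 8153 of 14336 and 10278 of 14119, and 4444 of 17585 and 5270 of 14731. Leaving out 1 library gave 5 to 6, 9 and 3 to 6 of the 10 genes. The all-gene shares were then 6497 of 14213 to 7849 of 14196, 9941 of 14940 to 11072 of 14943, and 3701 of 14944 to 6274 of 14943. In these alternatives no called value changed sign. Same-numbered libraries showed no consistent shared deviation from their group means. Their deviations correlated at -0.141, 0.135 and 0.002 in SK-N-BE2 and at 0.005, -0.138 and 0.064 in NGP. With so few libraries this cannot settle whether the replicate numbers pair cultures. Depth limits the values of genes with few reads, among them IGFBP6 and, in NGP, IGFBP7 and PAPPA.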

Other observations

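A few pathway genes fell outside the rule for naming and were chosen after their values were seen. PAPPA2, a protease of IGFBP3 and IGFBP5, had 126 reads over the 3 NGP libraries with DMSO and 3 with STM2457, a ratio of 39.6 (95% counting interval 13.3 to 195). In SK-N-BE2 it also fell, from 16.5 ± 1.68 to 9.11 ± 0.842 CPM (SD, n = 3, log2 fold change -0.90, edgeR adjusted p = 3.16e-05).

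INS, the insulin gene, had 11 reads with DMSO and 118 with STM2457 over the 3 SK-N-BE2 libraries of each group, a ratio of 10.8 with an interval from 5.83 to 22.3, and 0 reads in NGP. Of its exon bases 31.7% are shared with INS-IGF2. IGF2BP1 had 46846 reads over the NGP libraries with DMSO against 45 in SK-N-BE2 with DMSO, a ratio of 1080 per depth with an interval from 810 to 1490.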
